A study of Rattus norvegicus with 12 samples.

Results

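The response of rat pulmonary artery endothelial cells (PAEC) to an siRNA against NRF2 was followed in 6 of the 12 libraries of the series, 3 given a control siRNA (siControl) and 3 given the NRF2 siRNA (siNRF2). The remaining 6 libraries are pulmonary artery smooth muscle cells (PASMC) under the same siRNAs and serve here as a comparison; they also entered the filter on low counts, the estimate of spread and the classes of genes enriched in either cell type. The primary cells are labelled wild type and lung in every group. The sources used here give no strain, age or siRNA sequence. PAEC were grown in an endothelial growth medium and PASMC in a smooth muscle medium, so the cell types differ in culture as well as in kind. The libraries were assigned by the column names of the count table, whose first letter was taken as the cell type (E for PAEC, S for PASMC) and whose second as the siRNA (C for siControl, S for siNRF2). Every direction below rests on that reading, because the cell type label of the PAEC samples names PASMC while their titles name PAEC.

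NRF2, encoded by Nfe2l2, is a transcription factor that KEAP1 holds back by marking it for degradation. When oxidants or electrophiles disable KEAP1, NRF2 enters the nucleus and drives genes of glutathione synthesis, quinone reduction and iron storage. Pulmonary artery endothelium lines the vessel, sets its tone through nitric oxide and endothelin, and meets the blood's inflammatory signals.

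The count table identifies genes by Ensembl ID and position alone. Of its 32883 genes, 0 could be matched to a symbol in the RefSeq gene table (assembly GRCr8), which also holds 0 mitochondrial genes. No symbol or function is therefore given to any gene below, the level of the siRNA target was not checked, the endothelial label was not tested against its markers, and no sequence is shown. Coordinates are those of the table; the labels do not name its build.

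The 6 PAEC libraries held 30266992 to 34317763 counts. A principal component analysis of the 6 put 36.3% of the variance on a first component that separated siControl, at -40.5 to -32.6, from siNRF2, at 34.7 to 36.5. The second component, with 18.0%, spread the libraries within both groups. In log2 CPM, libraries of the same siRNA correlated at 0.976 to 0.979 and those of different siRNAs at 0.966 to 0.969. CPM is the depth-scaled count, here with TMM factors.

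Of the 14584 genes tested, 24.7% were called in PAEC, 11.5% higher and 13.2% lower in siNRF2 (quasi-likelihood test of edgeR, p under 0.05 after Benjamini-Hochberg adjustment, 3 libraries a group). Most changes were small. Of the 1678 genes that rose, 1150 changed by less than 1.5-fold, and of the 1929 that fell, 1014 did. Falls reached further: the middle 50% of rises spanned 0.35 to 0.65 on the log2 scale, and that of falls 0.40 to 0.93. By at least 2-fold, 1.15% of all genes rose and 2.87% fell. Among the 418 that fell this far, 104 also fell in PASMC, 40 rose there and 274 were not called, beside 30.7% of all genes called in PASMC, 14.6% lower and 16.1% higher. Among the 168 that rose this far, 46 rose in PASMC, 8 fell and 114 were not called. No overlap between siControl and siNRF2 values was seen for 1592 of the called rises and 1828 of the called falls, against 36.6% of all genes tested. In bulk RNA, fewer cells with a transcript and less of it per cell cannot be told apart.

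**Figure D1:**
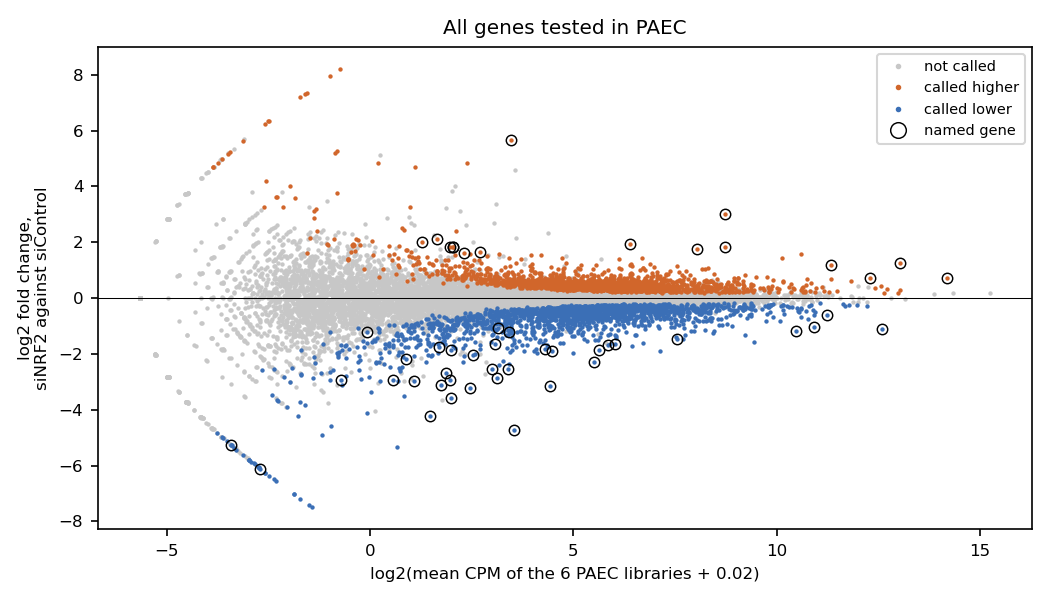
Each point is 1 of the 14584 genes tested, with the log2 of its mean CPM over the 6 PAEC libraries (plus 0.02) on the x axis and the fitted log2 fold change, siNRF2 against siControl, on the y axis. Orange points were called higher (1678), blue points lower (1929), and circles mark the genes named in the text. Falls of at least 2-fold (418) outnumber rises of that size (168).

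The genes with the most added or lost CPM were described first. Eligible genes had to be called, reach a mean of 2 CPM and show no overlap between the groups, which left 1536 that rose and 1711 that fell. CPM is not per length, so it ranks genes here by how many counts they gained or lost, not by molecules. The 4 largest gains together held 2.12 ± 0.101% of siControl counts and 3.78 ± 0.0306% of siNRF2 counts (mean ± SD, n = 3). The 4 largest losses went from 1.39 ± 0.0252% to 0.667 ± 0.0428%.

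ENSRNOG00000003897 (chromosome 10, 82745801 to 82762789, plus strand, 51 merged exons) stood at 15112, 13978 and 13289 CPM in the siControl libraries and 23277, 22490.4 and 23403 in the siNRF2 libraries. All 3 siNRF2 values lie above all 3 controls. It changed by 0.71 in log2 (SE 0.067, adjusted p = 3.7e-07, edgeR), beside 0.60 (SE 0.067) in PASMC. The effects in the cell types were not shown to differ (interaction 0.10, SE 0.094, adjusted p = 0.44).

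On chromosome 9 a gene with 51 merged exons, ENSRNOG00000003357 (52023295 to 52059217, plus strand), had 5347, 4769.5 and 4524 CPM in siControl and 11366, 12197 and 11819.5 in siNRF2. The groups are far apart, with a log2 change of 1.27 (SE 0.092; edgeR, adjusted p = 1.3e-08). One other gene overlaps it on the same strand, so its counts may be shared. The next tested gene, ENSRNOG00000003736 (52092511 to 52238564, minus strand), was taken up after its values were seen. It went from 858, 740.2 and 735 CPM to 2264, 2340.0 and 2356 CPM, a log2 change of 1.58 (SE 0.076; edgeR, adjusted p = 2.2e-10). Both neighbours also rose in PASMC, by less, at 0.37 and 0.63. The interaction was 0.90 (adjusted p = 7.5e-05) and 0.95 (adjusted p = 7.7e-06).

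The other gains were ENSRNOG00000052564 (chromosome 10, 40247436 to 40255422), from 3769 ± 202 to 6219.7 ± 83.4 CPM, and ENSRNOG00000014426 (chromosome 18, 47500330 to 47577819), from 1577 ± 149 to 3609 ± 203 CPM (mean ± SD, n = 3). The second of these did not pass in PASMC, where its level was higher, at 4576 ± 523 and 4975 ± 204 CPM.

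The largest loss of CPM also lay on chromosome 10. ENSRNOG00000012840 (40742400 to 40764185, minus strand) had 8624, 8372 and 8213 CPM in siControl and 3776, 3882 and 3913 CPM in siNRF2. Replicates varied little and the groups stayed well apart, with a log2 change of -1.12 (SE 0.060; edgeR, adjusted p = 3.7e-10). In PASMC the same gene changed by -0.49 (SE 0.060, adjusted p = 1.1e-05, edgeR), and the interaction was -0.63 (adjusted p = 4.6e-05).

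ENSRNOG00000046005 (chromosome 1, 264059374 to 264072433, plus strand, 6 merged exons) had the tightest replicates of these 8 genes. It read 1999.8, 1987 and 1971 CPM in siControl and 889, 880.0 and 883 CPM in siNRF2, a log2 change of -1.17 (SE 0.063; edgeR, adjusted p = 3.8e-10). It fell less in PASMC, by 0.40 on the log2 scale. ENSRNOG00000020843 (chromosome 1, 101448346 to 101449829, minus strand) moved in opposite directions. PAEC went from 2596 ± 366 to 1256 ± 62.3 CPM, PASMC from 1054 ± 119.9 to 1547 ± 60.7 CPM. Another gene overlaps it on the same strand. The 4th loss, ENSRNOG00000043098 (chromosome 19, 11307967 to 11308740), spread more, from 2407, 3036 and 3319.6 CPM to 1647, 2358 and 1678 CPM. Its log2 change of -0.62 (SE 0.14; edgeR, adjusted p = 0.0058) was not called when only the 6 PAEC libraries were fitted.

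**Figure D2:**
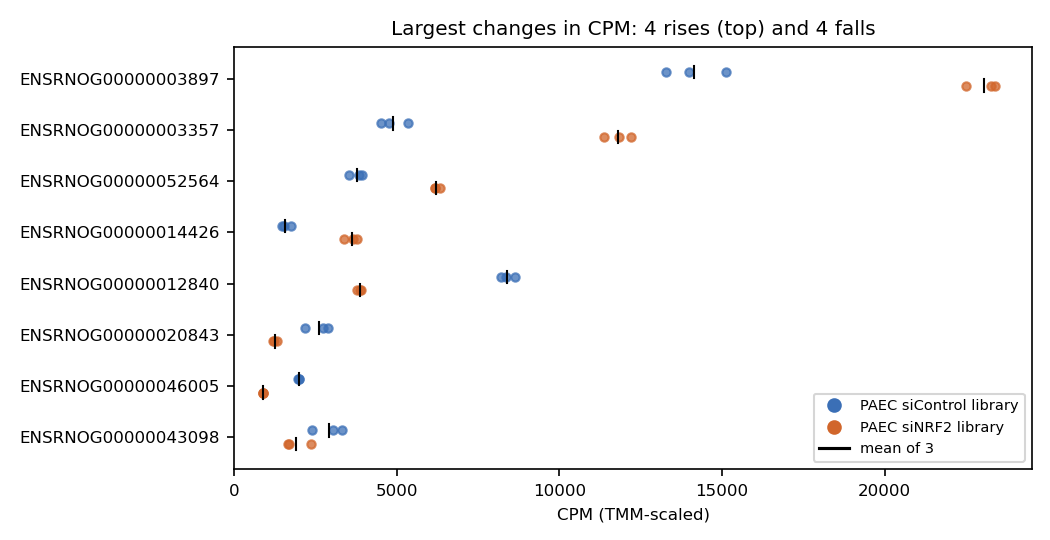
Points are TMM-scaled CPM (linear x axis) of the 3 siControl (blue) and 3 siNRF2 (orange) PAEC libraries, and black ticks are the means of 3. The upper 4 genes gained the most CPM and the lower 4 lost the most. The groups do not overlap in any of the 8 genes, and ENSRNOG00000043098 comes closest, with a highest siNRF2 value of 2358 and a lowest siControl value of 2407.

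The largest folds among the same eligible genes were then listed, 12 in each direction. Over all called genes, eligible or not, 33 rose and 51 fell by at least 8-fold. Of the 12 rises, 5 also rose in PASMC, 1 fell and 6 were not called. Over all genes tested, 29.1% passed the interaction, the test of the PAEC effect against the PASMC effect. The interaction passed with the PAEC effect above in 11 of the 12 rises, against 13.6% of all genes. Of the 12 falls, 3 fell in PASMC, 4 rose and 5 were not called. The interaction passed with the PAEC effect below in 10, against 15.4% of all genes. These genes were picked for a large PAEC change, which raises the chance of an interaction.

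Among eligible genes, ENSRNOG00000007089 (chromosome 6, 126282233 to 126320726, minus strand, 14 merged exons) had the largest rise that did not rest on 1 library. Its siControl libraries read 90.4, 87.8 and 102 CPM and its siNRF2 libraries 734, 808 and 739.7 CPM, a ratio of means of 8.15. The gap between the groups is many times the spread within them. It changed by 3.03 in log2 (SE 0.085; edgeR, adjusted p = 3.1e-14), and it ran from 2.97 to 3.08 over the 13 alternative settings.

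A larger fitted rise, 5.66 (SE 1.7, adjusted p = 0.040, edgeR), belonged to ENSRNOG00000049536 (chromosome 12, 7186473 to 7186873, 2 merged exons). It came from siNRF2 replicate 3 alone, at 62.7 CPM, with the other siNRF2 libraries at 1.20 and 1.04 CPM and siControl at 0.212 to 0.573 CPM. Without that library the log2 fold change was 1.38 (adjusted p = 0.17, edgeR).

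Several rises were of well expressed genes with tight replicates. ENSRNOG00000018865 (chromosome 2, 61039053 to 61340697, plus strand) had 35.5, 32.8 and 36.9 CPM in siControl and 139, 122 and 138 CPM in siNRF2. It changed by 1.92 in log2 (SE 0.10, adjusted p = 3.7e-10, edgeR), against 0.83 in PASMC. ENSRNOG00000016538 (chromosome 17, 79321900 to 79676499, minus strand) had 183, 179 and 203 CPM in siControl and 706, 566 and 725 CPM in siNRF2. It rose by 1.82 (SE 0.097) on the log2 scale in PAEC and was at 79.9 ± 8.46 and 83.0 ± 3.6 CPM in PASMC, where it did not pass (log2 fold change 0.06, adjusted p = 0.72). A gene on the opposite strand overlaps it. ENSRNOG00000048043 (chromosome 2, 26118760 to 26135340, minus strand) rose from 121 ± 8.08 to 405 ± 22.6 CPM, with 1 overlapping gene on its strand.

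The other 7 rises were of genes with means under 4 CPM in siControl. ENSRNOG00000052925 (chromosome 4, 29529854 to 29564768, plus strand), with 52 merged exons, went from 1.16, 0.641 and 1.11 CPM to 3.12, 3.57 and 4.97 CPM. In PASMC it was lower still, at 0.350 ± 0.180 and 0.248 ± 0.0678 CPM. ENSRNOG00000002070 (chromosome 14, 14951495 to 15008150) rose in PAEC, from 1.70 ± 0.849 to 6.08 ± 2.59 CPM, and fell in PASMC, from 3.29 ± 1.19 to 0.964 ± 0.375 CPM. The interaction was 3.6 (SE 0.65, adjusted p = 0.00064, edgeR). ENSRNOG00000029778 on the X chromosome (6430594 to 6533534) went from 3.16 ± 0.611 to 9.93 ± 0.490 CPM and did not pass in PASMC. The remaining 4, ENSRNOG00000051831 on chromosome 1, ENSRNOG00000040040 on chromosome 5, ENSRNOG00000011723 on chromosome 2 and ENSRNOG00000049629 on chromosome 18, had log2 fold changes of 2.13, 1.84, 1.82 and 1.63.

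The largest fall among eligible genes was of ENSRNOG00000019736 (chromosome 3, 152200936 to 152222647, minus strand, 13 merged exons). Its siControl libraries read 15.8, 34.2 and 17.7 CPM and its siNRF2 libraries 0.751, 1.12 and 0.656 CPM. The groups are far apart in PAEC, but 1 PASMC siNRF2 library, replicate 3, reached 14.3 CPM beside 0.824 and 0.845 CPM in the others, and that library enters the shared estimate of spread. The log2 fold change of -4.74 (SE 1.2) had an adjusted p of 0.020 (edgeR), and 4.8e-06 when PAEC libraries alone were fitted. It was not called without any single siNRF2 library of PAEC, at -4.60 to -5.01 (adjusted p = 0.055 to 0.072, edgeR).

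ENSRNOG00000010610 (chromosome 16, 37457135 to 37495758, minus strand) went from 7.55, 10.3 and 11.7 CPM to 0.751, 0.968 and 1.45 CPM. It changed by -3.21 in log2 (SE 0.24; edgeR, adjusted p = 1.7e-08). It fell in PASMC too, by 1.53, from a higher level of 30.0 ± 5.68 CPM.

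ENSRNOG00000012892 (chromosome 2, 225645568 to 225783287, plus strand, 50 merged exons) differed widely between the cell types. In PAEC it went from 7.44, 7.09 and 5.98 CPM to 1.01, 0.856 and 0.829 CPM, a log2 change of -2.92 (SE 0.15; edgeR, adjusted p = 2.8e-10). In PASMC it stood at 56.7 ± 1.81 and 66.1 ± 4.03 CPM (log2 fold change 0.22, adjusted p = 0.093), and the interaction was -3.14 (adjusted p = 2.9e-09).

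Of the remaining falls, ENSRNOG00000024139 (chromosome 5, 164672471 to 164679654) went from 3.74 ± 0.494 to 0.475 ± 0.0749 CPM and did not pass in PASMC. ENSRNOG00000026607 (chromosome 13, 79378733 to 79388498) went from 15.3 ± 2.09 to 2.13 ± 0.715 CPM. ENSRNOG00000009300 (chromosome 3, 57318795 to 57389901), which overlaps another gene on its strand, went from 16.0, 13.7 and 24.1 CPM to 3.64, 3.57 and 2.11 CPM. The effects of these last 2 in PAEC and PASMC were not shown to differ (interaction adjusted p = 0.092 and 0.099, edgeR). The other 6 of the 12 lie in loci described next.

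**Figure D3:**
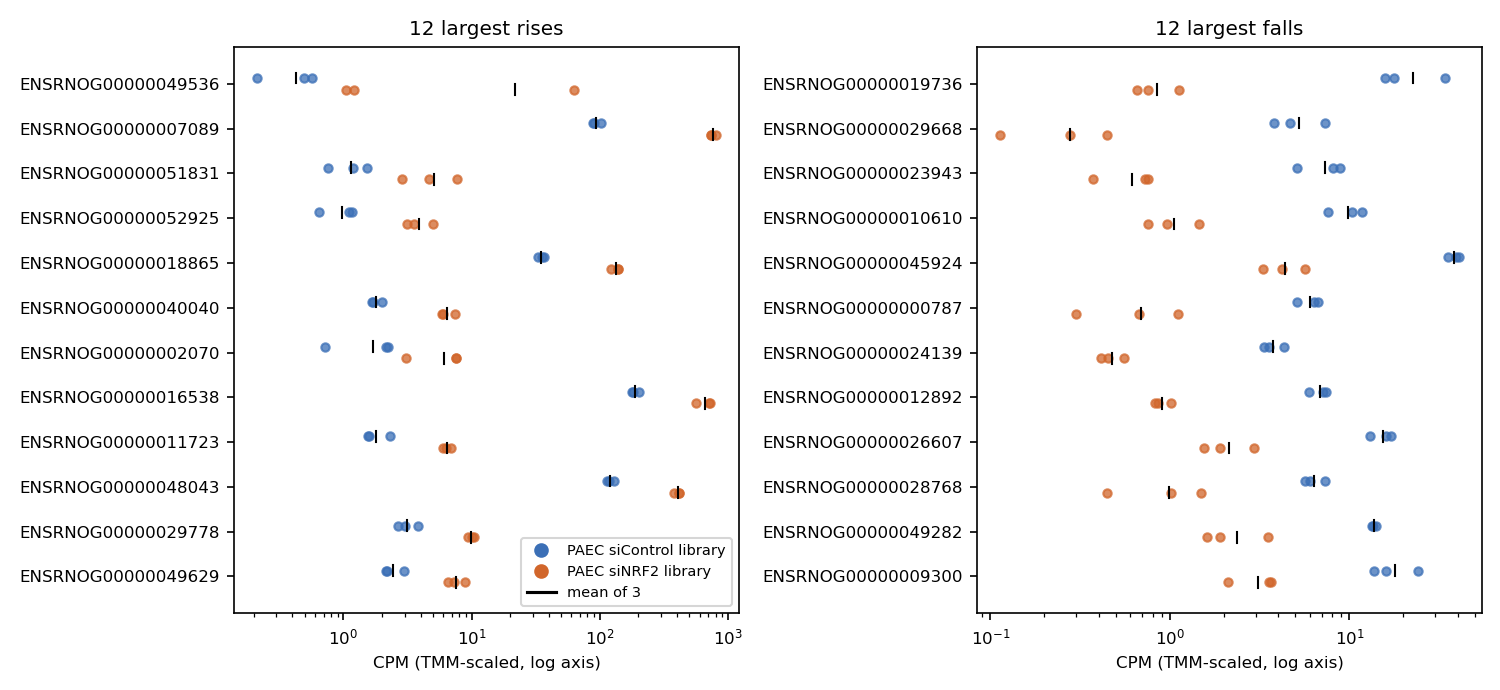
TMM-scaled CPM of the 12 largest rises (left) and 12 largest falls (right) on a log x axis, with 1 point per PAEC library (blue siControl, orange siNRF2) and black ticks at the means of 3. The groups do not overlap in any of the 24 genes. The choice of genes required this and a mean of at least 2 CPM. The mean of ENSRNOG00000049536 is set by 1 library at 62.7 CPM.

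Falls were also looked at by position. In all, 7 stretches of 3 or more consecutive tested genes, in which each gene fell by at least 2-fold, were found on chromosomes 1, 6, 10, 11, 14, 19 and 20, and 0 in which each rose. By at least 2-fold, 2.87% of all genes fell and 1.15% rose, so fewer genes could form a stretch of rises. The counts of stretches were not tested against these shares. The 7 stretches hold 22 genes. In PASMC 7 of the 22 rose, 6 fell and 9 were not called, and the interaction passed with the PAEC effect below in 20. Over all genes these shares were 16.1%, 14.6% and, for an interaction that passed below 0, 15.4%. The 22 were chosen for PAEC falls, which favours an interaction below 0. The number of stretches was 3 when low counts were left unfiltered, 4 when PAEC libraries alone were fitted and 4 without siControl replicate 2.

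The stretch with the most genes was on chromosome 20, where 4 plus-strand genes between 3176107 and 3249189 fell together. ENSRNOG00000000777 had 301, 274 and 251 CPM in siControl and 94.3, 109 and 94.8 CPM in siNRF2. ENSRNOG00000042905 had 89.2, 93.7 and 79.5 CPM, then 21.8, 35.7 and 24.5 CPM. ENSRNOG00000045924 had 39.2, 40.8 and 35.3 CPM, then 4.21, 5.62 and 3.32 CPM. The 4th, ENSRNOG00000000787, had 6.70, 6.33 and 5.08 CPM, then 0.300, 0.670 and 1.11 CPM. Every siNRF2 library was below every siControl library in each gene, and all 4 genes were called higher in PASMC. The log2 fold changes were -1.47 (SE 0.095), -1.68 (SE 0.15), -3.14 (SE 0.16) and -3.11 (SE 0.37), with adjusted p at most 5.9e-06 (edgeR). Counts of near-identical copies in such a stretch could be split between them, which the labels do not settle.

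On chromosome 11, ENSRNOG00000001959 (37891156 to 37914983, minus strand) went from 70.5, 73.9 and 84.0 CPM to 16.1, 12.4 and 17.6 CPM, and ENSRNOG00000001963 (38035450 to 38059950, plus strand) from 95.7, 104 and 95.3 CPM to 32.6, 31.9 and 29.4 CPM. Both fell in each siNRF2 library of PAEC, by -2.31 (SE 0.16) and -1.65 (SE 0.11) on the log2 scale. Both rose in PASMC, from 104 ± 14.2 to 222 ± 41.5 CPM and from 287 ± 42.4 to 544 ± 81.7 CPM. The interactions were -3.40 (adjusted p = 1.1e-07, edgeR) and -2.58 (adjusted p = 1.1e-08). The first gene of the stretch, ENSRNOG00000001953 (37798370 to 37880821), fell from 5.00 ± 0.338 to 1.48 ± 0.280 CPM.

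On chromosome 14, 3 plus-strand genes fell between 17195014 and 17234712. The middle one, ENSRNOG00000022256, had 69.0, 73.0 and 90.8 CPM in siControl and 20.6, 22.2 and 22.0 CPM in siNRF2, far below its PASMC level of 1307 ± 36.5 CPM. ENSRNOG00000022298 went from 2.99 ± 0.344 to 0.654 ± 0.373 CPM, and its level in PASMC was 18.4 ± 3.06 CPM. A gene on the opposite strand overlaps each of these. ENSRNOG00000022242 had about 1 CPM in siControl (0.952, 1.13 and 1.07) and 0.0375, 0.372 and 0 CPM in siNRF2, and was not called without siControl replicate 2 or siNRF2 replicates 1 or 3.

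On chromosome 1, ENSRNOG00000022839 (252906234 to 252911382, plus strand, 2 merged exons) went from 28.3, 31.1 and 32.5 CPM to 8.97, 10.6 and 6.60 CPM. It fell in PAEC by 1.82 (SE 0.12, adjusted p = 1.2e-08, edgeR) and rose in PASMC by 0.51 (SE 0.10, adjusted p = 0.0012), where it was at 392 ± 26.5 CPM. Its neighbours ENSRNOG00000036603 and ENSRNOG00000019050 had log2 fold changes of -1.23 (adjusted p = 0.035) and -1.66 (adjusted p = 0.024). Each of these neighbours was not called under 6 of the 13 alternative settings. They keep the stretch at 3 genes.

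On chromosome 6, a minus-strand and a plus-strand gene lie side by side. ENSRNOG00000007539 (45655954 to 45669148) went from 35.7, 33.6 and 36.2 CPM to 13.1, 7.26 and 8.12 CPM, and ENSRNOG00000007690 (45683234 to 45694822) from 14.9, 15.8 and 13.9 CPM to 5.67, 7.63 and 5.87 CPM. Both fell, with log2 fold changes of -1.89 (SE 0.17) and -1.21 (SE 0.11). In PASMC the first fell by 0.41 (adjusted p = 0.046, edgeR) and the second did not pass. The third gene of the stretch, ENSRNOG00000030034, lies far off at 46629974 and had 12 counts in all of siControl and 0 in siNRF2, at least 4.06-fold lower against a floor of 3 counts over the group. Its siControl replicate 3 was itself at 0, so the groups overlap. The call, which the stretch needs, was lost with limma voom (adjusted p = 0.22), with PAEC libraries alone (edgeR, adjusted p = 0.16) and without siControl replicate 2 (edgeR, adjusted p = 0.071).

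The stretch on chromosome 10 fell in both cell types. ENSRNOG00000029668 (71047310 to 71053191) went from 7.30, 4.64 and 3.80 CPM to 0.113, 0.447 and 0.276 CPM. ENSRNOG00000037097 (71008709 to 71010863) went from 9.49, 7.5 and 10.8 CPM to 2.67, 1.94 and 2.07 CPM, and ENSRNOG00000057390, which spans it on the same strand, from 2.61 ± 0.104 to 0.335 ± 0.148 CPM. The PAEC falls were larger than those in PASMC for all 3 (interactions -2.49, -0.87 and -1.51, adjusted p at most 0.030, edgeR).

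On chromosome 19 the stretch was thin. ENSRNOG00000014948 (52077109 to 52085496) went from 12.6, 13.5 and 9.95 CPM to 6.61, 5.58 and 5.11 CPM and ENSRNOG00000015084 (52086325 to 52112629) from 6.28 ± 0.519 to 1.71 ± 0.527 CPM. In PASMC ENSRNOG00000015084 fell too, with a log2 fold change of -1.80 (edgeR, adjusted p = 0.015). Its effects in the cell types were not shown to differ (interaction -0.08, adjusted p = 0.96, edgeR). The other members did not pass in PASMC. The third, ENSRNOG00000058847, had 22 counts in siControl, none of them in replicate 3, and 0 in siNRF2, at least 7.38-fold lower against the same floor. The groups overlap at 0. This call too, on which the stretch depends, was lost with limma voom (adjusted p = 0.13), with PAEC libraries alone (edgeR, adjusted p = 0.074) and without siControl replicate 2 (edgeR, adjusted p = 0.052).

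**Figure D4:**
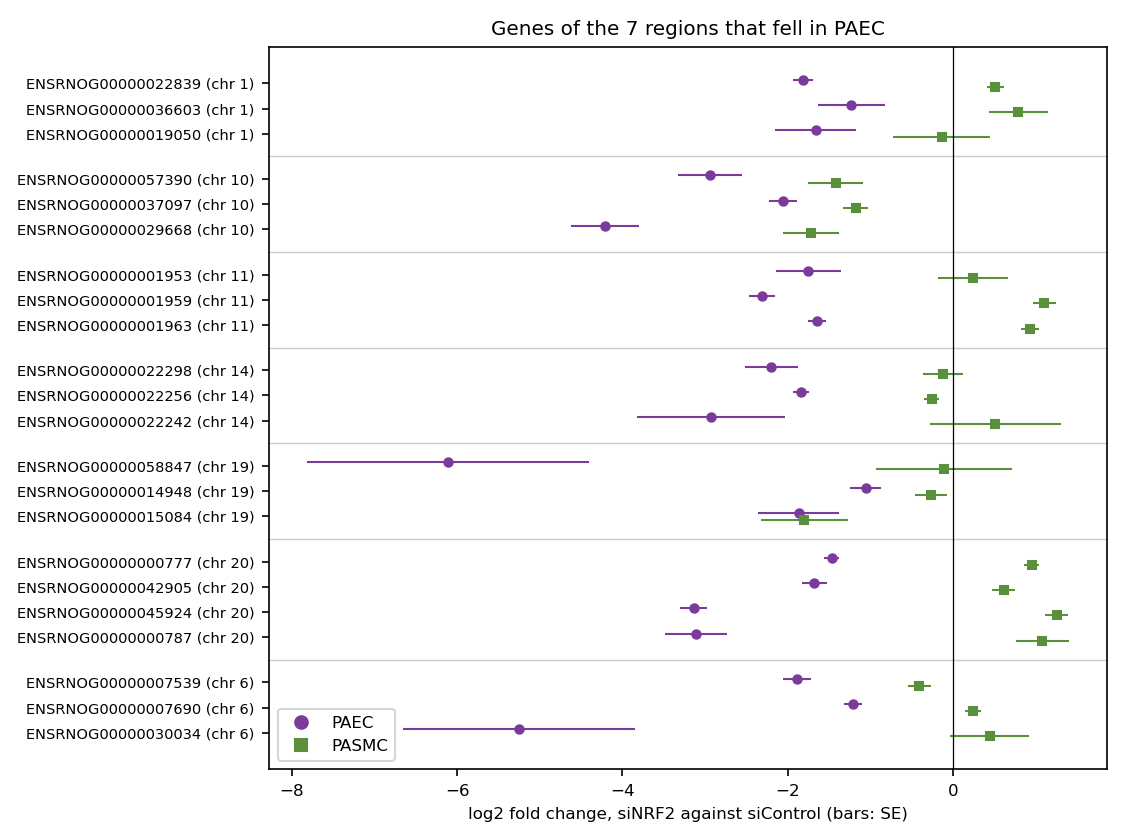
Log2 fold changes (x axis, bars are SE) of the 22 genes in the 7 stretches, for PAEC (purple circles) and PASMC (green squares), with lines between stretches. All PAEC points lie left of 0. On chromosome 20 the 4 PASMC points lie right of 0, and on chromosome 10 the 3 PASMC points lie left of it. The widest bars, for ENSRNOG00000058847 and ENSRNOG00000030034, belong to genes with 0 counts in siNRF2. Their fitted sizes depend on the prior count of the edgeR fit, not on that of log2 CPM.

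When 1 other tested gene was allowed between members, a rule set after the data were seen, 10 stretches fell and 0 rose. The 3 added lie on chromosomes 2, 4 and 12. On chromosome 2, all 5 tested genes between 248178389 and 248409570, on the plus strand, fell in PAEC, 3 of them by at least 2-fold. The largest falls there were of ENSRNOG00000023943, from 5.11, 8.11 and 8.81 CPM to 0.751, 0.372 and 0.726 CPM, and ENSRNOG00000028768, from 5.64, 7.35 and 6.01 CPM to 1.01, 0.447 and 1.49 CPM. The most abundant, ENSRNOG00000031743, went from 123, 144 and 133 CPM to 69.0, 78.6 and 63.5 CPM. In PASMC 3 of the 5 rose and 1 fell, and the interaction was below 0 for all 5.

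On chromosome 12, 3 of 5 tested genes between 41155497 and 41363161 fell in PAEC and rose in PASMC. ENSRNOG00000049282 went from 13.3, 14.1 and 13.6 CPM to 1.61, 3.54 and 1.90 CPM, a log2 change of -2.54 (SE 0.21; edgeR, adjusted p = 6.4e-08). ENSRNOG00000001369 went from 28.6 ± 4.68 to 9.45 ± 2.15 CPM and ENSRNOG00000033220 from 45.3 ± 1.93 to 17.7 ± 2.57 CPM. Another, ENSRNOG00000047076, had 9.24, 4.45 and 8.52 CPM in siControl and 0.826, 4.36 and 0.311 CPM in siNRF2, and did not pass (adjusted p = 0.15). On chromosome 4, 3 of 4 tested genes between 153747947 and 154359137 fell. ENSRNOG00000037198, the most abundant of them, went from 46.7 ± 5.72 to 18.2 ± 3.67 CPM. ENSRNOG00000028896, whose call the stretch needs, lies far off at 154309426. It had 1.87, 0.566 and 1.5 CPM in siControl and 0.0375, 0.298 and 0.587 CPM in siNRF2 (edgeR, adjusted p = 0.025). Its groups overlap, and its level in PASMC was 207 ± 2.73 CPM under siControl.

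Genes that mark the difference between the cell types were counted next, without symbols, by their mean level over both siRNAs. The 257 genes at least 8-fold higher in PAEC than in PASMC had 28 rises and 38 falls, 10.9% and 14.8%, beside 11.5% and 13.2% of all genes. These counts moved with the fit, to 44 rises and 57 falls with limma voom, of 1620 and 1812 over all genes, and to 37 and 54 when PAEC libraries alone were fitted, of 1437 and 1673. Their median log2 fold change was -0.055, against 0.0 over all genes, and they held 4.07 ± 0.0666% of siControl counts and 4.30 ± 0.119% of siNRF2 counts. By at least 2-fold, 10 rose and 19 fell, 3.89% and 7.39%, beside 1.15% and 2.87% of all genes. The 38 falls of any size became 24 without siNRF2 replicate 3 and 25 without siControl replicate 2. The level that sets this class includes the siNRF2 libraries, so a rise in PAEC helps a gene into it. Members could also pass the filter through PAEC, where they are high. These counts are therefore a description.

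The 445 genes at least 8-fold higher in PASMC were chosen by a level that includes the siNRF2 libraries, so a fall in PAEC itself helps a gene into the class, and their counts are a description. In PAEC 85 fell and 19 rose, 19.1% and 4.27%, with a median of -0.229, and 71 fell by at least 2-fold, or 16.0% against 2.87% of all genes. Many could pass the filter, and have their spread estimated, through PASMC, where they are high. Together the 445 took 0.117, 0.126 and 0.126% of counts in the siControl libraries and 0.0698, 0.0652 and 0.0643% in the siNRF2 libraries, with no overlap. The number that fell was 50 when only the PAEC libraries were fitted and 59 with limma voom. From the stretches above, the list includes ENSRNOG00000022839 on chromosome 1 and ENSRNOG00000022298 and ENSRNOG00000022256 on chromosome 14. All members of the chromosome 6 stretch, ENSRNOG00000007539, ENSRNOG00000007690 and ENSRNOG00000030034, are in it. On chromosome 2 it holds ENSRNOG00000012892 and, from the locus above, ENSRNOG00000028768 and ENSRNOG00000032240. On chromosome 4 it holds ENSRNOG00000028896.

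The share of smooth muscle RNA in the PAEC libraries bears on that list. Over the 62 of these genes with at least 50 CPM in PASMC, the level in PAEC was a median of 7.56% of that in PASMC under siControl and 4.29% under siNRF2. It was under 1% for 7 of the 62 under siControl and 8 under siNRF2, and reached 0.0%. The changes were not of 1 size: 33 of the 62 fell, 1 rose, 28 were not called, and log2 fold changes ran from -4.99 to 0.79. Defining smooth muscle markers could not be picked out by symbol, and the part of smooth muscle RNA in the falls was not tested.

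**Figure D5:**
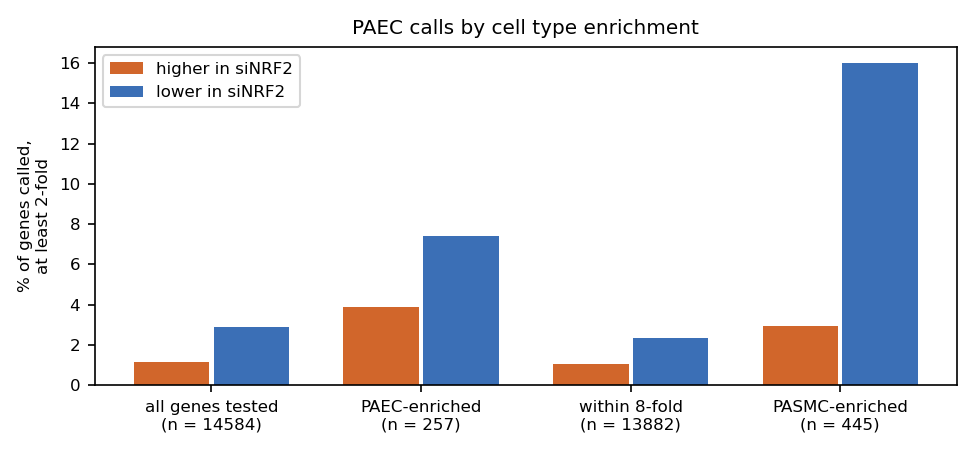
Bars give the percentage of genes called and changed by at least 2-fold in PAEC (y axis from 0), higher (orange) or lower (blue) in siNRF2, for all genes and for 3 classes by the ratio of mean PAEC to PASMC level, with the number of genes below. Falls of this size make up 16.0% of the 445 PASMC-enriched genes, 7.39% of the 257 PAEC-enriched genes and 2.36% of the 13882 genes in between. The classes were set by levels that include the siNRF2 libraries, so these shares are a description.

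Genes were also counted by exon number, after 3 named rises were seen to have over 50 merged exons; the classes were not tested against each other. Of the 156 genes with at least 50 merged exons, which include those 3, 30 rose and 11 fell, 19.2% and 7.05%, beside 11.5% and 13.2% of all genes. Of the 2801 genes with 2 to 4 merged exons, 205 rose and 394 fell, 7.32% and 14.1%. The libraries were not uniform in this. The median deviation of the 156 genes from the mean of the 6 libraries was 0.023, -0.088 and -0.074 on the log2 scale in siControl and 0.12, -0.063 and 0.128 in siNRF2, so the groups overlapped. The number of rises was 16 when siControl replicate 2 was left out, 16 when siNRF2 replicate 1 was, and 19 when siNRF2 replicate 3 was. Transcript length and RNA quality, which can move with exon number, were not tested.

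The mitochondrial chromosome encodes subunits of the respiratory chain with their own rRNAs and tRNAs. Of its 15 genes of at least 200 bases, 5 rose in PAEC and 0 fell, beside 11.5% and 13.2% of all genes. The median PAEC log2 fold change was 0.43. In PASMC 14 of the 15 fell and 1 was not called, with a median of -1.263, beside 14.6% of all genes that fell there. The interaction passed with the PAEC effect above in 14, beside 13.6% of all genes. The largest of the called rises was of ENSRNOG00000031053 (9870 to 10166), from 94.6, 113 and 135 CPM to 225, 166 and 232 CPM (log2 change 0.87, SE 0.15; edgeR, adjusted p = 0.00081). ENSRNOG00000029971 (11736 to 13565) rose by 0.68, from 1164, 1260.4 and 1565 CPM to 2181, 1932 and 2257 CPM. Another called rise, ENSRNOG00000031766 (14136 to 15278; log2 change 0.36, edgeR, adjusted p = 0.023), has groups that overlap. Its highest siControl value was 5603 CPM and its lowest siNRF2 value 5584 CPM. The most abundant, ENSRNOG00000034234 (5323 to 6867), overlapped between the groups, at 16777, 19289.8 and 22793 CPM and at 22888, 21033 and 22187 CPM, and did not pass (adjusted p = 0.29). The siControl libraries spread widely, with 3.22, 3.76 and 4.52% of counts on the 15 genes, against 4.79, 4.39 and 4.63% in siNRF2. Left-out libraries moved the count from 5 to between 2 and 9, at 2 without siControl replicates 1 or 2 or siNRF2 replicates 1 or 3, 3 without siNRF2 replicate 2 and 9 without siControl replicate 3.

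No chromosome carried the response alone. Over the 20 autosomes and the X chromosome, the share of genes called lower ran from 9.11% on chromosome 18 to 16.9% on chromosome 13, and the share called higher from 9.38% on chromosome 1 to 14.9% on chromosome 18. By level, calls were least frequent among scarce genes. Under 1 CPM, 2.01% rose and 3.55% fell, while at 100 to 1000 CPM 23.1% rose and 19.4% fell, and of the 144 genes above 1000 CPM 40 rose and 32 fell. Only 2 genes had at least 10 counts in each siControl library and 0 in each siNRF2 library, and 1 showed the reverse.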

How the data were processed

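Raw counts per gene, as deposited, cover 12 RNA-seq libraries. The tools listed, per the submitters' processing notes, are featureCounts 2.0.3, HISAT2 2.0.5 and DESeq2 1.32.0, without roles or settings. Per the labels' protocols the library kit keeps strand; they do not say whether counting used strand. The deposited Length equals the merged exons of each of the 32883 genes.

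Genes were filtered with filterByExpr (14584 kept), scaled by TMM and fitted with edgeR 4.0.16 (R 4.3.3) over all 12 libraries, 1 coefficient per group, 8 residual degrees of freedom. Standard errors come from the F statistics. Log2 CPM used a prior count of 2. Alternatives used limma 3.58.1 and DESeq2 1.42.0. The fit was tested on simulated data.

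The named genes are the 12 largest rises and 12 largest falls in log2 fold change and the 4 each way in CPM, among called genes of at least 2 CPM with groups that do not overlap, and the members of the stretches. Members and lists were chosen with earlier results of these data known. The 20 gene lists by symbol were not run. The design text calls the libraries biological replicates; nothing names separate animals or cultures, so p-values measure the spread between libraries.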

Additional observations from a re-analysis of the deposited data

Results flagged for a closer look

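The effect of the siRNA differed between PAEC and PASMC, by the interaction test, for 44 of the 51 named genes (edgeR, adjusted p under 0.05), where 29.1% of all genes tested passed. The 51 were picked for their PAEC change, which enters the interaction and raises the chance of passing it. Values are the PAEC effect minus the PASMC effect on the log2 scale. Among the largest rises the difference was 8.18 for ENSRNOG00000049536, 1.54 for ENSRNOG00000007089, 2.50 for ENSRNOG00000052925, 1.09 for ENSRNOG00000018865, 1.52 for ENSRNOG00000040040, 3.6 for ENSRNOG00000002070, 1.77 for ENSRNOG00000016538, 0.98 for ENSRNOG00000011723, 1.03 for ENSRNOG00000048043, 2.03 for ENSRNOG00000029778 and 0.97 for ENSRNOG00000049629. That of ENSRNOG00000049536 rests on 1 library. Among the largest falls outside the stretches it was -7.88 for ENSRNOG00000019736, -4.72 for ENSRNOG00000023943, -1.68 for ENSRNOG00000010610, -2.43 for ENSRNOG00000024139, -3.14 for ENSRNOG00000012892, -2.55 for ENSRNOG00000028768 and -3.17 for ENSRNOG00000049282. For ENSRNOG00000019736, 1 PASMC library was high. Among the genes with the largest changes in CPM it was 0.90 for ENSRNOG00000003357, 0.41 for ENSRNOG00000052564, 1.07 for ENSRNOG00000014426, -0.63 for ENSRNOG00000012840, -1.60 for ENSRNOG00000020843 and -0.77 for ENSRNOG00000046005. In the stretch on chromosome 20 it was -4.39 for ENSRNOG00000045924, -4.19 for ENSRNOG00000000787, -2.41 for ENSRNOG00000000777 and -2.29 for ENSRNOG00000042905. In the stretch on chromosome 11 it was -1.99 for ENSRNOG00000001953, -3.40 for ENSRNOG00000001959 and -2.58 for ENSRNOG00000001963. On chromosome 14 it was -2.08 for ENSRNOG00000022298, -1.59 for ENSRNOG00000022256 and -3.44 for ENSRNOG00000022242. In the stretch on chromosome 1 it was -2.33 for ENSRNOG00000022839 and -2.02 for ENSRNOG00000036603. On chromosome 6 it was -1.48 for ENSRNOG00000007539, -1.46 for ENSRNOG00000007690 and -5.69 for ENSRNOG00000030034. In the stretch on chromosome 10 it was -2.49 for ENSRNOG00000029668, -1.51 for ENSRNOG00000057390 and -0.87 for ENSRNOG00000037097. On chromosome 19 it was -6.00 for ENSRNOG00000058847 and -0.79 for ENSRNOG00000014948. The values of ENSRNOG00000058847 and ENSRNOG00000030034 are fitted against 0 counts and depend on the prior count of the edgeR fit.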

How the results depend on the processing

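Over 13 alternatives, 43 of the 51 named genes were called in the same direction under each that gave an adjusted p, and 8 lost the call under at least 1. DESeq2 gave no adjusted p for ENSRNOG00000049536, and the cause of the losses was not tested. Calls over all genes, at 1678 higher and 1929 lower, stayed within 1.5 times under each alternative, 1351 and 2228 with library totals. Leaving out 1 library gave 1146 to 1686 and 1592 to 2031. The stretches that fell, 7, became 3 without the count filter, 4 in a fit of the 6 PAEC libraries, and 4 to 9 with 1 library left out. PAEC-enriched genes that rose, 28, became 44 with limma voom, and those that fell, 38, became 57 with limma voom, 54 with PAEC libraries alone, 49 with DESeq2 and 24 to 33 with 1 library left out. PASMC-enriched falls, 85, became 50 with only the PAEC libraries, and rises of genes with at least 50 merged exons, 30, ranged from 16 to 36 with 1 library left out. These last 2 results were added after seeing the data. Mitochondrial calls, 5, became 8 with DESeq2, 9 with limma voom, 3 with no filter and 2 to 9 with 1 library left out. Near 0, ENSRNOG00000030478 turned from 0.04 to -0.01 with library totals, -0.13 without siControl replicate 1 and -0.03 without siNRF2 replicate 2 (range -0.13 to 0.17 with 1 library left out), and ENSRNOG00000043866 from -0.04 to 0.05 without siControl replicate 3 (range -0.19 to 0.05). Same-numbered libraries did not deviate together (r from -0.058 to -0.021). With 3 libraries a group, this cannot settle whether the numbers pair them. With a replicate block 1593 genes rose, 1769 fell and 9 mitochondrial genes were called. Low counts limit genes under about 1 CPM.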
